A study of Mus musculus with 12 samples.

Results

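Venous and lymphatic endothelial cells are set apart from arterial cells by a small group of genes, and 8 of them were followed here in cardiac fibroblasts that received *Sox17* and *Erg*. The genes were chosen by name and are *Nr2f2*, *Nr2f1*, *Prox1*, *Lyve1*, *Pdpn*, *Apln*, *Aplnr* and *Stab1*, which are 8 of the 35727 genes in the deposited table of estimated counts. The cells came from the pooled hearts of neonatal mice up to postnatal day 3 and were selected with magnetic beads for THY1, a fibroblast surface protein. The isolation for the study's characterization experiments also had a step that depletes PECAM1-positive endothelial cells. The mice were either *C57BL/6J* or a cross of *Rosa26*-tdTomato with *Tcf21*-CreERT2, and the sources used here do not say which strain gave the bulk RNAseq cells. *Sox17* and *Erg* were delivered by pMX retrovirus, and the labels call the other arm control fibroblasts without saying whether these cells received an empty virus. The count columns of that arm are named PMX, like the viral backbone, with no further explanation. The labels give EGM2, an endothelial growth medium, for both arms. RNA was taken on Day 3, on Day 7 and after 4 weeks, which gives 6 groups of 2 libraries. Nothing in the labels says that the 2 libraries of a group came from separate isolations, so the p-values measure only the spread between these libraries.

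In the embryo, endothelial cells that express the nuclear receptor *Nr2f2* (COUP-TFII) take a venous fate, and some of these venous cells switch on the homeobox factor *Prox1* and become the first lymphatic endothelial cells. *Lyve1*, *Pdpn* and *Stab1* encode surface proteins used to recognize lymphatic vessels, and *Aplnr* encodes the receptor for the peptide apelin (*Apln*), with the receptor found on venous and the ligand on sprouting endothelium. None of these genes is restricted to vessels. *Nr2f2* and *Pdpn* are also expressed by stromal and mesothelial cells, *Prox1* by cardiomyocytes, and *Lyve1* and *Stab1* by tissue macrophages.

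The members are protein-coding genes on 8 chromosome regions of GRCm38. *Nr2f2* lies at chr7:70351944-70366735, *Nr2f1* at chr13:78188973-78199757 and *Prox1* at chr1:190118035-190170714. *Lyve1* lies at chr7:110850607-110863239, *Pdpn* at chr4:143267431-143299564, *Apln* at chrX:48025146-48034853 and *Stab1* at chr14:31139013-31168641, all on the minus strand like the transcription factors. *Aplnr* lies on the plus strand at chr2:85136225-85139923 and has 1 exon.

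The targeted genes separated the arms, since *Sox17* was at or below 0.416 CPM in the control libraries and between 432 and 1040 CPM in the *Sox17*-*Erg* libraries. CPM, the standard depth-corrected unit, relates a gene's count to the library total after scaling by the TMM method. *Erg* was at or below 2.27 CPM in control and between 17.1 and 65.2 CPM with *Sox17*-*Erg*. Library totals ran from 19011635 to 41240449 counts. The summed level of 8 pan-endothelial markers was 17.9 to 51.7 CPM in control and 244 to 677 CPM in *Sox17*-*Erg* libraries, although *Cldn5*, a junction gene of endothelium, had at most 10 counts in any library. *Cdh5* made up most of the *Sox17*-*Erg* sum, with means of 178, 324 and 445 CPM. Of 7 markers tested, 3, 4 and 5 were called higher at Day 3, Day 7 and 4 weeks, beside 7.19%, 9.48% and 11.9% of all genes. With a replicate block within each time point, 6 were higher at 4 weeks, beside 15.5% of all genes. The 10 fibroblast markers summed to between 12800 and 42000 CPM, with a median log2 fold change of -0.89 on Day 3, -0.59 on Day 7 and -0.675 after 4 weeks. Of them, 1 was called lower at Day 3 (*Tcf21*), 3 at Day 7 (*Pdgfra*, *Dcn* and *Lum*) and 4 at 4 weeks (all of these), or 4, 4 and 4 with a replicate block over all libraries and 6, 5 and 5 with a block within each time point, and *Postn* was called higher at Day 7 and 4 weeks. In bulk samples, fewer cells of a type and less RNA per cell cannot be told apart.

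Against control, *Prox1* and *Nr2f1* were higher with *Sox17*-*Erg* at all 3 time points and *Nr2f2* at Day 3, while *Pdpn* was lower at Day 3 and Day 7 and *Apln* at Day 7 and 4 weeks. *Lyve1* and *Stab1* did not pass the test at any time point. At Day 3, 3 members were higher (*Nr2f2*, *Nr2f1* and *Prox1*) and 1 was lower (*Pdpn*) at an adjusted p under 0.05, where 7.19% of all 15506 genes tested were called higher and 5.13% lower. At Day 7, 2 members were higher (*Nr2f1* and *Prox1*) and 2 were lower (*Pdpn* and *Apln*), beside 9.48% and 7.93% of all genes. At 4 weeks, 2 were higher (*Nr2f1* and *Prox1*) and 1 was lower (*Apln*), beside 11.9% and 11% of all genes. Of the 8 members, 7 had enough counts to be tested, and *Aplnr* did not. The 7 had a median log2 fold change of 0.62 at Day 3, of -0.75 at Day 7 and of 0.65 at 4 weeks, beside medians of 0.01, 0.01 and -0.01 over all genes tested.

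**Figure D1:**
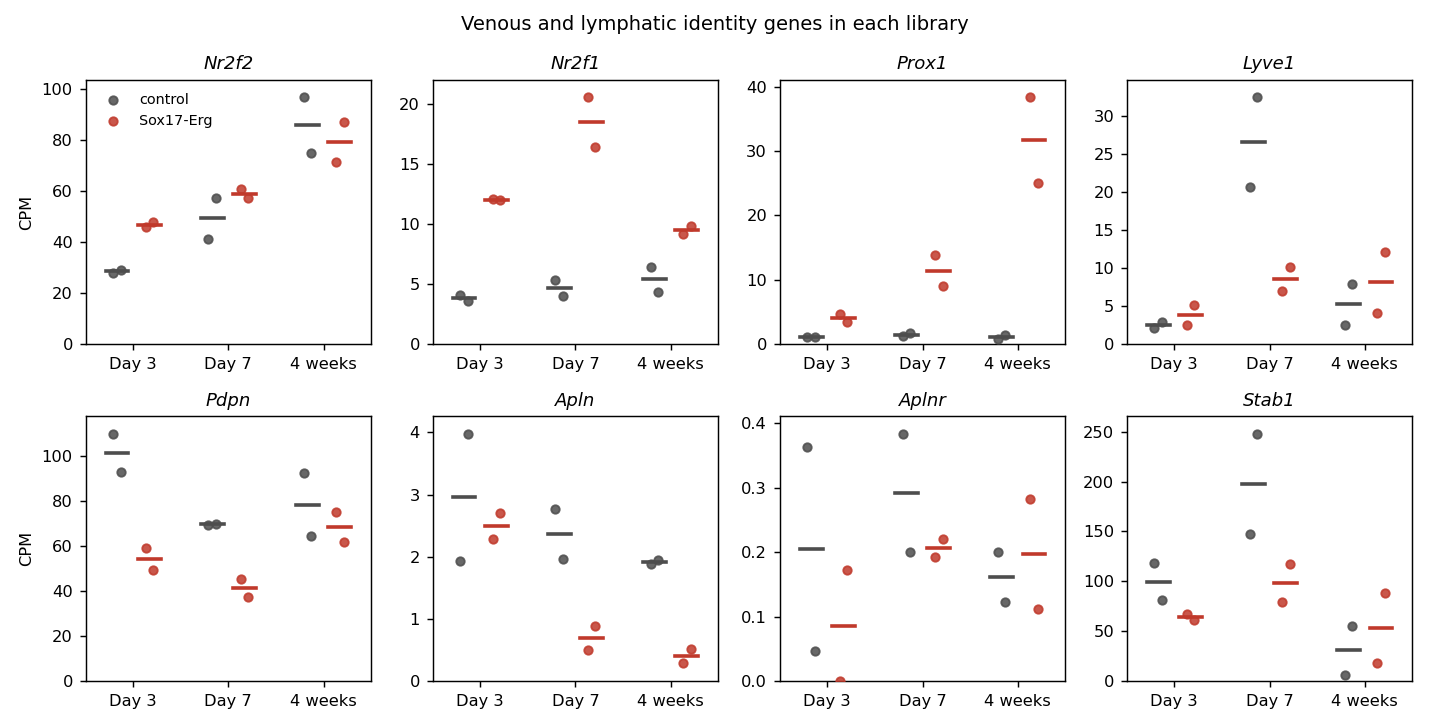
CPM of each member (vertical axes, from 0) in the 12 libraries at Day 3, Day 7 and 4 weeks, with control libraries in grey and Sox17-Erg libraries in red. Each point is 1 library and each bar the mean of 2. The red *Prox1* points rise from 3.40 and 4.76 CPM at Day 3 to 25.0 and 38.4 CPM at 4 weeks while the grey points stay between 0.877 and 1.69 CPM.

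*Prox1*, the homeobox factor that directs lymphatic fate, had the largest rise among the members. In control it was at 1.06 and 1.06 CPM at Day 3, 1.27 and 1.69 CPM at Day 7, and 0.877 and 1.46 CPM at 4 weeks. In *Sox17*-*Erg* cells it was at 4.76 and 3.40 CPM at Day 3, 13.8 and 9.10 CPM at Day 7, and 38.4 and 25.0 CPM at 4 weeks. The arms did not overlap at any time point, and every *Sox17*-*Erg* library was above every control library. Its log2 fold change against control measured 1.94 at Day 3 (SE 0.36, adjusted p = 0.0128), 2.95 at Day 7 (SE 0.35, adjusted p = 0.000827) and 4.78 at 4 weeks (SE 0.37, adjusted p = 5.25e-05), which is 3.83-fold, 7.74-fold and 27.5-fold. Adjusted p-values here and elsewhere come from the edgeR quasi-likelihood model, with Benjamini-Hochberg adjustment over all genes tested. Over the 3 time points together, the mean difference in log2 CPM was 3.14 with an exact permutation p of 0.0093, the smallest this design can give.

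The effect on *Prox1* grew with time. It was 2.85 log2 units larger at 4 weeks than at Day 3 (SE 0.50, adjusted p = 0.0195), in a comparison where 2.22% of all genes were called in that direction. No other member passed this test of the difference in effect between time points. Within the *Sox17*-*Erg* cells, *Prox1* rose by 1.49 log2 units from Day 3 to Day 7 (adjusted p = 0.0428, where 2.04% of all genes were called higher) and by 2.96 from Day 3 to 4 weeks (adjusted p = 0.000719), whereas the step from Day 7 to 4 weeks, 1.47 log2 units, had an adjusted p of 0.0527. That step passed with 1 replicate block over all libraries (adjusted p = 0.0492), with at least 50 counts in 2 libraries (0.0469), with DESeq2 (0.00136) and with no filter on low counts (0.000118). Within control it differed by 0.11 log2 units between Day 3 and 4 weeks (adjusted p = 0.855). The Day 3 call was lost without control replicate 1 (adjusted p = 0.086), control replicate 2 (adjusted p = 0.0876) or *Sox17*-*Erg* replicate 1 (adjusted p = 0.115). The difference in effect was lost without either control library of Day 3, control replicate 1 of 4 weeks, *Sox17*-*Erg* replicate 2 of Day 3 or *Sox17*-*Erg* replicate 1 of 4 weeks, with adjusted p between 0.0611 and 0.0802. The rise from Day 3 to Day 7 was lost in 9 of the 12 fits that left out 1 library.

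*Prox1* is also a cardiomyocyte gene, and 6 cardiomyocyte markers are given beside it. Their summed level was 883 to 1520 CPM in control and 328 to 404 CPM with *Sox17*-*Erg* at Day 3, 636 to 884 against 366 to 466 CPM at Day 7, and 1070 to 1340 against 682 to 686 CPM at 4 weeks. None of the 6 was called higher at any time point, and 1, 2 and 4 of them were called lower at Day 3, Day 7 and 4 weeks, or 4, 5 and 5 with a replicate block within each time point. Against control these markers were thus lower where *Prox1* was higher. Within *Sox17*-*Erg* cells their sum was highest at 4 weeks, as *Prox1* was, but *Tnnt2* (cardiac troponin T) made up most of it, with means of 327, 377 and 654 CPM. The means of *Myh6* (22.7, 16 and 12.2 CPM) and *Actc1* (6.14, 3.08 and 1.8 CPM) went the other way. *Nppa* had its highest mean at Day 7 (16.4 CPM), and *Ryr2* (3.32, 3.14 and 3.32 CPM) and *Tnni3* (1.12, 0.859 and 0.959 CPM) showed no rise. Markers of mural cells, the pericytes and smooth muscle of the vessel wall, were also higher in the *Sox17*-*Erg* libraries, with 2, 4 and 4 of 6 called higher at Day 3, Day 7 and 4 weeks and 2 called lower at 4 weeks (1 with a replicate block of either kind, and 1 at Day 3 with the block within time points). Their sum was 232 to 284, 107 to 123 and 120 to 153 CPM in control and 325 to 506, 593 to 766 and 916 to 974 CPM with *Sox17*-*Erg*. The part of cardiomyocytes and of mural cells in the *Prox1* values was not tested. The 2 tested genes whose log2 CPM followed *Prox1* most closely over the 12 libraries were *Rnf157* and *Klhl34* (both r = 0.988), a description over libraries that share their groups.

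The promoter sequences of members that were called are shown to place the letters of the delivered factors' motifs. RefSeq windows on GRCm38.p6 were at hand for 6 of the 8 members, with none for *Lyve1* and *Aplnr*, and 4 of them lie outside the annotated gene and belong to a called member. The 250 bases before the start are printed 5′ to 3′ on the strand of the gene, which is the minus strand for all 4. *Prox1* is at chr1:190170828-190171077, *Nr2f2* at chr7:70366747-70366996, *Pdpn* at chr4:143299565-143299814 and *Apln* at chrX:48034854-48035103. Capitals mark the letters AGGAAG, a core bound by ETS factors such as ERG, or ATTGT, a core bound by SOX factors, on either strand (CTTCCT and ACAAT). No 2 of the matches overlapped.
Prox1: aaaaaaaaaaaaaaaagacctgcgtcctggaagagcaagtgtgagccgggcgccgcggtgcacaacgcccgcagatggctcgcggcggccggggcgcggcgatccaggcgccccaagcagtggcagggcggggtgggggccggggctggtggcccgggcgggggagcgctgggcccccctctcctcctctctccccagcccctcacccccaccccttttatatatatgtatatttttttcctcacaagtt
Nr2f2: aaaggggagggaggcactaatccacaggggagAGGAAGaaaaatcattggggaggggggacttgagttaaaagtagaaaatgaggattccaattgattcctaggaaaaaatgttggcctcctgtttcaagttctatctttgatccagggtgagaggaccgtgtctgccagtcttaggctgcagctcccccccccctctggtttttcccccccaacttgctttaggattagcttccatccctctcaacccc
Pdpn: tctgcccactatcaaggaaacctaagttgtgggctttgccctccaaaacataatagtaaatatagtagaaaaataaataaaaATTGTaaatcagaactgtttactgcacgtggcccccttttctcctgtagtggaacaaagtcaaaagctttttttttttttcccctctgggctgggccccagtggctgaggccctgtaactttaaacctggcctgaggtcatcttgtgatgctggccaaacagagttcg
Apln: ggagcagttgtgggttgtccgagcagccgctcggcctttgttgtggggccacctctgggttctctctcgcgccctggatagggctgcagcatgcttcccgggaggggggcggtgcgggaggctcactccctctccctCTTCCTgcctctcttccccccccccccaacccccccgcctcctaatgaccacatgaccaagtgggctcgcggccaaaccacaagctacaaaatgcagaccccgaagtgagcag
The printed *Prox1* window held neither motif. Nor did a second *Prox1* window or the windows of *Nr2f1*, all of which lie inside the annotated gene. For *Prox1* and *Nr2f2* the bases just after the window were not found in any annotated transcript of the gene (GENCODE M21), so their start sites rest on RefSeq alone. *Nr2f2* and *Apln* held 1 ETS match each, starting 218 and 113 bases before the start site, and *Pdpn* held 1 SOX match, 168 bases before it. Of all 32851 RefSeq windows of this length, 29.5% held the ETS letters, 27.7% the SOX letters and 7.78% both.

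The COUP-TF genes *Nr2f1* and *Nr2f2*, nuclear receptors of which *Nr2f2* maintains venous identity, were both higher at Day 3. Only *Nr2f1* was also called at Day 7 and 4 weeks, and whether the courses of the 2 genes differed was not tested. *Nr2f1* in control was at 4.08 and 3.56 CPM at Day 3, 5.34 and 4.02 CPM at Day 7, and 6.41 and 4.39 CPM at 4 weeks. With *Sox17*-*Erg* it was at 12.1 and 12 CPM at Day 3, 20.6 and 16.4 CPM at Day 7, and 9.17 and 9.89 CPM at 4 weeks. Each *Sox17*-*Erg* library was above each control library at all 3 time points, with the highest values at Day 7. For *Nr2f1* the log2 fold change was 1.66 at Day 3 (SE 0.23, adjusted p = 0.00379), 1.98 at Day 7 (SE 0.23, adjusted p = 0.000723) and 0.81 at 4 weeks (SE 0.22, adjusted p = 0.0281), with an exact permutation p of 0.0093 over the 3 time points. The effect was 1.17 log2 units smaller at 4 weeks than at Day 7, which did not pass the test across all genes (adjusted p = 0.398). Within *Sox17*-*Erg* cells the change over that interval was -0.96 log2 units (adjusted p = 0.0637, or 0.0409 with 1 replicate block over all libraries, 0.0075 with DESeq2 and 0.00795 with no filter on low counts). The 4-week call was lost without control replicate 2 (adjusted p = 0.142), *Sox17*-*Erg* replicate 1 (adjusted p = 0.0863) or *Sox17*-*Erg* replicate 2 (adjusted p = 0.121) of that time point, and when the 4 libraries of 4 weeks were fitted alone (adjusted p = 0.0645).

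*Nr2f2* rose during culture in both arms. In control it went from 28.1 and 29.2 CPM at Day 3 to 41.4 and 57.4 CPM at Day 7 and 96.9 and 75.0 CPM at 4 weeks. With *Sox17*-*Erg* it went from 46.0 and 47.8 CPM to 60.8 and 57.2 CPM and then to 71.4 and 87.2 CPM. The arms were apart at Day 3 and overlapped at Day 7 and 4 weeks. Its log2 fold change against control measured 0.71 at Day 3 (SE 0.18, adjusted p = 0.0355), 0.26 at Day 7 (SE 0.18, adjusted p = 0.355) and -0.12 at 4 weeks (95% interval -0.51 to 0.28, adjusted p = 0.681). From Day 3 to 4 weeks *Nr2f2* rose by 1.59 log2 units in control (SE 0.18, adjusted p = 0.000744) and by 0.76 in *Sox17*-*Erg* cells (SE 0.18, adjusted p = 0.0129), comparisons in which 13.9% and 15.1% of all genes were called higher. The difference between these rises, -0.83 log2 units, did not pass the test (adjusted p = 0.126). The Day 3 call was lost without any 1 of the 4 Day 3 libraries, with adjusted p of 0.156 and 0.162 for the control libraries and 0.178 and 0.101 for the *Sox17*-*Erg* libraries. The rise within *Sox17*-*Erg* cells was lost without *Sox17*-*Erg* replicate 1 or 2 of Day 3 (adjusted p = 0.0576 and 0.0529) or replicate 2 of 4 weeks (adjusted p = 0.0734).

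The third COUP-TF gene, *Nr2f6*, did not differ beyond the spread at any time point, with log2 fold changes of 0.00, 0.27 and 0.09 and adjusted p of 0.999, 0.237 and 0.695. Of the distinct 31-base words in the transcripts of *Nr2f2*, 8.12% also occur in transcripts of other genes on either strand. The share was 2.18% for *Nr2f1* and 1.23% for *Prox1*, and some words are shared between the COUP-TF genes. An antisense gene overlaps 7.46% of the exon bases of *Nr2f2*, 2.42% of those of *Nr2f1* and 1.59% of those of *Prox1*. The kit was stranded and the sources do not say whether counting used the strand, so the share of counts affected by these overlaps is not known. The genes most like *Nr2f2* over the 12 libraries were *Ufd1* (r = 0.958) and *Cep120* (r = 0.957), and those most like *Nr2f1* were *2410002F23Rik* (r = 0.955) and *Tmem28* (r = 0.951).

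**Figure D2:**
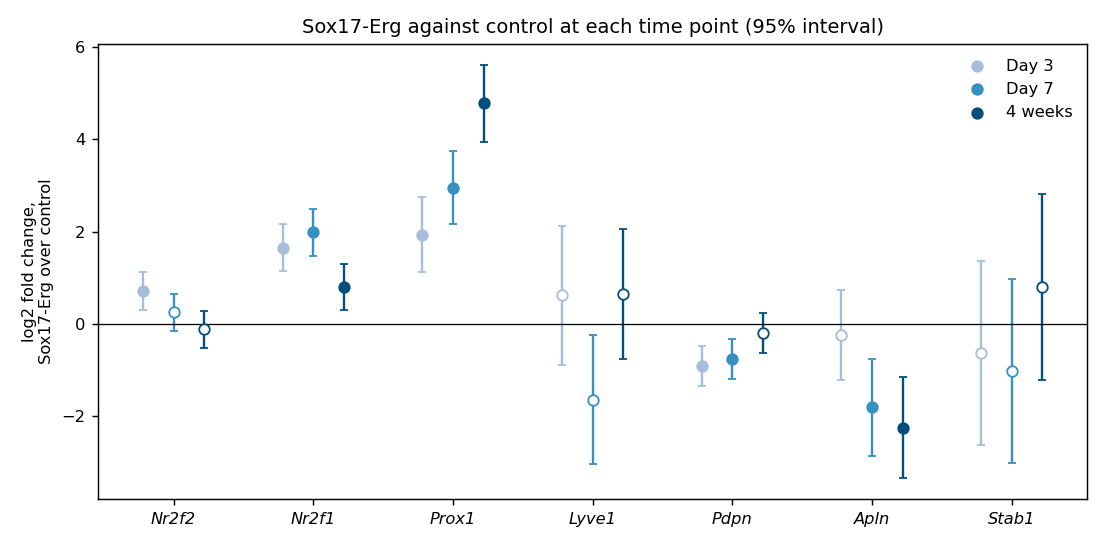
Log2 fold change of *Sox17*-*Erg* over control (vertical axis) for the 7 tested members at Day 3, Day 7 and 4 weeks, with 95% intervals from the edgeR fit. Filled points passed an adjusted p under 0.05. *Prox1* climbs from 1.94 to 4.78, *Nr2f2* goes from 0.71 to -0.12, and the intervals of *Stab1* and *Lyve1* are the widest.

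*Pdpn* encodes podoplanin, a membrane glycoprotein of lymphatic endothelium that fibroblasts and mesothelium also carry, and it was lower with *Sox17*-*Erg* at the first 2 time points. In control it was at 110 and 92.8 CPM at Day 3, 69.5 and 69.8 CPM at Day 7, and 92.4 and 64.4 CPM at 4 weeks. In *Sox17*-*Erg* cells it was at 59.2 and 49.4 CPM at Day 3, 45.2 and 37.5 CPM at Day 7, and 75.3 and 61.7 CPM at 4 weeks. The arms were apart at Day 3 and Day 7 and overlapped at 4 weeks. The log2 fold change was -0.90 at Day 3 (SE 0.19, adjusted p = 0.0198), -0.75 at Day 7 (SE 0.19, adjusted p = 0.0278) and -0.20 at 4 weeks (95% interval -0.62 to 0.23, adjusted p = 0.509). Over the 3 time points the exact permutation p was 0.019, and *Pdpn* was lower with *Sox17*-*Erg* in 6 of 6 same-numbered pairs. The difference in effect between 4 weeks and Day 3, 0.70 log2 units, had an adjusted p of 0.222, and 0.0387 with a replicate block within each time point. Leaving out any 1 of the 4 libraries of a time point ended that call, with adjusted p of 0.117, 0.0576, 0.084 and 0.0876 at Day 3 and 0.0689, 0.101, 0.079 and 0.0984 at Day 7 (control replicates 1 and 2, then *Sox17*-*Erg* replicates 1 and 2). Within *Sox17*-*Erg* cells *Pdpn* changed by 0.73 log2 units from Day 7 to 4 weeks (adjusted p = 0.0917, or 0.0269 with 1 replicate block over all libraries, 0.0155 with DESeq2 and 0.00503 with no filter on low counts). The part of fibroblasts, some of whose markers were called lower at the same time points, in the *Pdpn* values was not tested.

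*Apln*, the ligand of the apelin receptor, was at low counts in control and fell further with *Sox17*-*Erg*. Control libraries held 53 and 86 counts on Day 3, 72 and 49 on Day 7, and 75 and 48 after 4 weeks, or 1.88 to 3.98 CPM. With *Sox17*-*Erg* there were 45 and 63 counts at Day 3 (2.28 and 2.71 CPM), 18 and 20 at Day 7 (0.496 and 0.879 CPM), and 8 and 14 at 4 weeks (0.283 and 0.519 CPM). The arms overlapped at Day 3, and every later *Sox17*-*Erg* library was below every control library. The log2 fold change was -0.23 at Day 3 (adjusted p = 0.76), -1.80 at Day 7 (SE 0.46, adjusted p = 0.0279) and -2.25 at 4 weeks (SE 0.48, adjusted p = 0.00991), the last being 4.75-fold lower. Within *Sox17*-*Erg* cells *Apln* fell by 2.63 log2 units from Day 3 to 4 weeks (adjusted p = 0.00504), where 15.6% of all genes were called lower, and within control the change was -0.62 (adjusted p = 0.32). The difference in effect between 4 weeks and Day 3 was -2.01 log2 units and did not pass the test (adjusted p = 0.144). The Day 7 call was lost without control replicate 1 (adjusted p = 0.0994), control replicate 2 (adjusted p = 0.0552) or *Sox17*-*Erg* replicate 1 (adjusted p = 0.212), and when Day 7 was fitted alone (adjusted p = 0.0795), and the 4-week call without *Sox17*-*Erg* replicate 1 (adjusted p = 0.0861). Over the 3 time points the exact permutation p was 0.028, and an exact sign-flip test of the 6 same-numbered pairs, of which 5 were lower, gave 0.062.

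The gene most like *Apln* over the 12 libraries was *Aldh1a2* (r = 0.941), a retinoic acid enzyme on the mesothelial and epicardial marker list, followed by *Dpp9* (r = 0.931). Within control the genes of that list did not move together. From Day 3 to 4 weeks the means of *Aldh1a2* (19, 12.6 and 9.03 CPM), *Krt19* and *Krt8* fell. Those of *Msln* (314, 544 and 822 CPM), *Upk3b*, *Upk1b* and *Wt1* were higher at 4 weeks than at Day 3, and those of *Lrrn4* and *Tbx18* differed little. Markers of that list were lower with *Sox17*-*Erg*, with 1, 5 and 8 of 9 called lower at Day 3, Day 7 and 4 weeks and 1, *Tbx18*, called higher at Day 7. Their summed level was 399 to 903 CPM in control and 236 to 320 CPM with *Sox17*-*Erg* at Day 3, 621 to 1150 against 312 to 405 CPM at Day 7, and 991 to 1530 against 230 to 318 CPM at 4 weeks. No marker of the list was at 0 in any library. With a replicate block of either kind, 7, 8 and 8 of the 9 were called lower. *Pdpn* and *Apln* were both called lower at Day 7, but *Apln* was not called at Day 3, and *Pdpn* was not called at 4 weeks. The part of mesothelial and epicardial cells in these results was not tested.

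*Aplnr*, the apelin receptor of venous endothelium, was close to absent from every library. It had 10 and 1 counts in control and 0 and 4 with *Sox17*-*Erg* at Day 3, 10 and 5 against 7 and 5 at Day 7, and 8 and 3 against 8 and 3 at 4 weeks. The highest level was 0.384 CPM, and the arms overlapped at every time point. It did not reach the count minimum for the test, and a difference was not detectable at this depth. The other known ligand of the receptor, *Apela*, had a mean of at most 0.0959 CPM in any group.

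*Lyve1* and *Stab1*, a hyaluronan receptor and a scavenger receptor of lymphatic and sinusoidal endothelium, had the largest differences between 2 libraries of a group among the tested members, by up to 9.17-fold for *Stab1* and 3.12-fold for *Lyve1*, both in control at 4 weeks. *Lyve1* in control was at 2.11 and 2.91 CPM at Day 3, 20.7 and 32.5 CPM at Day 7, and 2.56 and 7.97 CPM at 4 weeks. In *Sox17*-*Erg* cells it was at 2.48 and 5.17 CPM at Day 3, 6.95 and 10.2 CPM at Day 7, and 4.14 and 12.1 CPM at 4 weeks. The control libraries of Day 7 stood above all others, and the arms overlapped at Day 3 and 4 weeks. For *Lyve1* the log2 fold change was 0.62 at Day 3 (95% interval -0.88 to 2.12, adjusted p = 0.576), -1.64 at Day 7 (95% interval -3.03 to -0.25, adjusted p = 0.102) and 0.65 at 4 weeks (95% interval -0.75 to 2.05, adjusted p = 0.504). In control the change of *Lyve1* from Day 7 to 4 weeks was -2.36 (adjusted p = 0.128, or 0.0245 with 1 replicate block over all libraries, 0.0043 with DESeq2 and 1.11e-05 with no filter on low counts). With 1 library left out it ran from -3.41 to -1.74. From Day 3 to Day 7 *Lyve1* in control rose by 3.41 log2 units (SE 0.68, adjusted p = 0.0203), where 4.7% of all genes were called higher. That rise was lost without control replicate 1 or 2 of Day 3 (adjusted p = 0.152 and 0.115) or control replicate 2 of Day 7 (adjusted p = 0.0987). The lower level with *Sox17*-*Erg* at Day 7 passed the threshold with DESeq2 (adjusted p = 0.0318), when Day 7 was fitted alone (adjusted p = 0.044) and with no filter on low counts (adjusted p = 0.000516).

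*Stab1* in control was at 118 and 81.2 CPM at Day 3, 147 and 248 CPM at Day 7, and 6.01 and 55.1 CPM at 4 weeks. With *Sox17*-*Erg* it was at 67.2 and 61.4 CPM at Day 3, 78.7 and 117 CPM at Day 7, and 18.3 and 87.8 CPM at 4 weeks. The *Sox17*-*Erg* libraries were below the control libraries on Day 3 and Day 7, and the arms overlapped after 4 weeks. There the first replicate of either arm was far below the second, by 9.17-fold in control and 4.79-fold with *Sox17*-*Erg*. The *Stab1* log2 fold changes were -0.63 at Day 3, -1.01 at Day 7 and 0.81 at 4 weeks, none of them called (adjusted p = 0.678, 0.467 and 0.565), and the 95% interval of the last was -1.21 to 2.82. Without control replicate 1 of 4 weeks the last value was -0.06 (adjusted p = 0.981), without control replicate 2 it was 3.14 (adjusted p = 0.0447), and without *Sox17*-*Erg* replicate 2 it was -0.75 (adjusted p = 0.659).

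Same-numbered libraries of the 2 arms deviated together, and calls on *Lyve1* and *Stab1* depended on whether this pairing was modelled. With a replicate block within each time point, *Lyve1* was lower at Day 7 (log2 fold change -1.63, adjusted p = 0.00102) and higher at 4 weeks (0.65, adjusted p = 0.0294), and *Stab1* was lower at Day 7 (-0.99, adjusted p = 0.0135) and higher at 4 weeks (1.098, adjusted p = 0.00954). This block gave 4 members called lower at Day 7 and 4 called higher at 4 weeks, beside 13.3% and 15.5% of all genes. With 1 replicate block over all libraries, *Lyve1* at Day 7 was the only one of these 4 values to pass (adjusted p = 0.00803). The difference in effect on *Lyve1* between Day 7 and Day 3, -2.26 log2 units, had an adjusted p of 0.502, with 0.0276 under the block within time points and 0.00843 with no filter on low counts. That on *Stab1* between 4 weeks and Day 3, 1.44 log2 units, had an adjusted p of 0.641, and 0.0237 with the block within time points.

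*Stab1* moved with macrophage markers across the libraries, and *Lyve1* did so only loosely. The 2 genes most like *Stab1* over the 12 libraries were *Adgre1*, which encodes the macrophage surface protein F4/80 (r = 0.993), and *Ms4a6b* (r = 0.985), and those most like *Lyve1* were *Siglec1*, a sialic acid receptor of tissue macrophages (r = 0.859), and *Cbr2* (r = 0.845). The summed level of 13 macrophage markers was 322 to 514 CPM in control and 336 to 356 CPM with *Sox17*-*Erg* at Day 3, 1050 to 1490 against 339 to 533 CPM at Day 7, and 55.5 to 480 against 83.1 to 402 CPM at 4 weeks. No marker of the list was at 0 in any library. *Cx3cr1* was called higher at Day 3 and 4 weeks and no marker was called lower, whereas with the block within time points 10 of the 13 were called lower and 1 higher at Day 7, and 2 higher at 4 weeks. Per 1000 CPM of these markers, *Stab1* had 230 and 252 CPM in control and 200 and 173 CPM with *Sox17*-*Erg* at Day 3, 140 and 166 against 232 and 220 CPM at Day 7, and 108 and 115 against 221 and 219 CPM at 4 weeks. These ratios depend on the markers chosen, since *Lyz2* (lysozyme) made up 49.1% to 67.7% of the sum in each library. Against *Adgre1* alone, *Stab1* was 9.97 and 11.9 times as high in control and 14 and 11.3 times with *Sox17*-*Erg* at Day 3, 7.39 and 8.44 against 11.9 and 9.76 times at Day 7, and 17.1 and 9.9 against 16.7 and 11.2 times at 4 weeks, so that the arms were apart at Day 7 by either ratio and overlapped at Day 3 and 4 weeks by the second. *Lyve1* had 4.11 to 46.0 CPM in control and 7.39 to 49.8 CPM with *Sox17*-*Erg* per 1000 CPM of the markers. The part of these cells in the values of *Stab1* and *Lyve1* was not tested. *Stab2*, the second stabilin and a marker of sinusoidal endothelium, stayed at or below 0.281 CPM in every library, and *Cd44*, the hyaluronan receptor of many cell types, was called higher at all 3 time points with log2 fold changes of 1.08, 2.75 and 3.67.

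**Figure D3:**
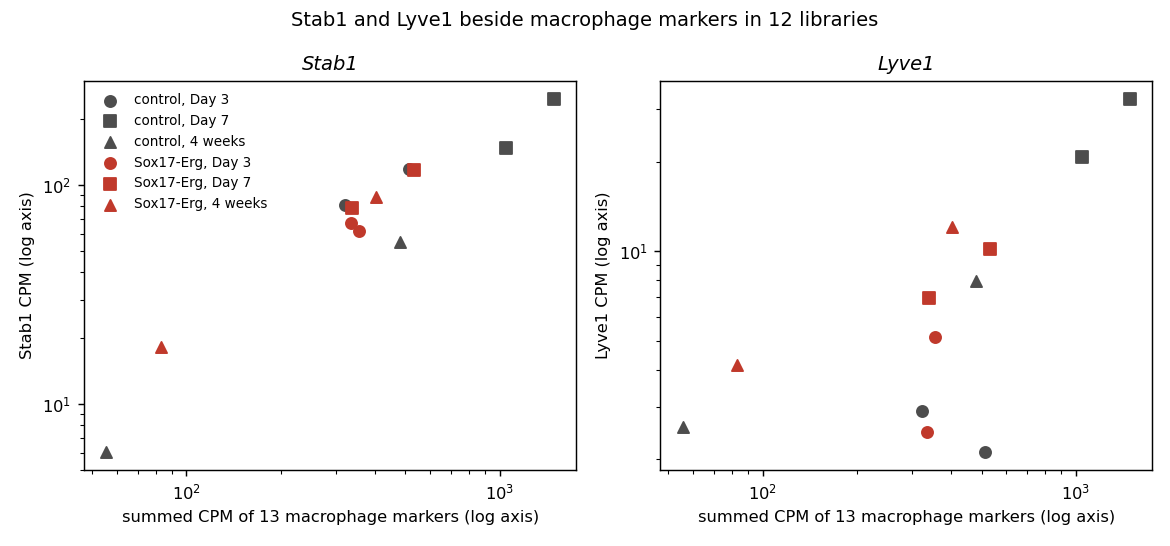
CPM of *Stab1* (left) and *Lyve1* (right) on log vertical axes against the summed CPM of 13 macrophage markers on a log horizontal axis, with 1 point for each of 12 libraries, control in grey and *Sox17*-*Erg* in red. *Stab1* follows the marker sum from 6.01 CPM at a sum of 55.5 CPM to 248 CPM at a sum of 1490 CPM, and *Lyve1* follows it more loosely.

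Set side by side per kilobase of merged exons, the order of the levels shifted around *Prox1*. *Pdpn* had the highest mean level in each group, from 22.8 to 55.7 CPM per kb, and *Aplnr* the lowest, at most 0.0791 CPM per kb. *Prox1* was the second lowest in each control group, with means of 0.126, 0.176 and 0.140 CPM per kb, and did not overlap with *Aplnr* below it. In *Sox17*-*Erg* cells its mean was 0.486 CPM per kb at Day 3, 1.36 at Day 7 and 3.78 at 4 weeks, where it overlapped with *Stab1* above it (5.16 CPM per kb) and *Lyve1* below it (2.79 CPM per kb). *Apln*, at a mean of 0.938 CPM per kb in control at Day 3 and 0.127 with *Sox17*-*Erg* at 4 weeks, lay below *Prox1* in *Sox17*-*Erg* cells from Day 7 on and above it in every control group. *Nr2f2* was above *Nr2f1* in every group with no overlap, with means of 9.19 and 1.87 CPM per kb with *Sox17*-*Erg* at 4 weeks.

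Among the other venous and lymphatic genes, calls went in both directions and many genes were not called. Those not called at Day 3, Day 7 and 4 weeks were 5, 6 and 4 of 9 venous and 11, 8 and 5 of 14 lymphatic genes. Of 10 other venous genes, 9 were tested, of which 2 were higher and 2 lower on Day 3, 1 higher and 2 lower on Day 7, and 2 higher and 3 lower after 4 weeks. Over all genes the shares called higher and lower were 7.19% and 5.13%, 9.48% and 7.93%, and 11.9% and 11%. With a replicate block over all libraries, 4 venous genes were lower on Day 7 and 4 after 4 weeks, beside 9.42% and 12.2% of all genes. With the block within time points the same numbers were lower, beside 13.3% and 15.5%, and 2 were higher on Day 7, beside 13.8%. *Emcn*, the sialomucin endomucin of venous and capillary endothelium, was higher at each time point (log2 fold changes 4.00, 4.54 and 4.63), while the endocytic adaptor *Dab2* was lower at each (-1.08, -1.47 and -1.62). With 1 library left out, the Day 3 value of *Emcn* ran from 3.20 to 5.74 and that of Day 7 from 3.89 to 5.63, and the Day 3 calls held in 11 of 12 fits for *Emcn* (adjusted p up to 0.0561) and 10 of 12 for *Dab2* (adjusted p up to 0.126). *Ephb4*, the receptor that marks veins and binds the arterial ligand ephrin-B2, was not called, with log2 fold changes of 0.13, 0.20 and -0.08 and adjusted p of 0.56, 0.311 and 0.69. *Nrp2*, a co-receptor of veins and lymphatics, was lower at Day 3 (-1.19, adjusted p = 0.036) and 4 weeks (-1.11, adjusted p = 0.0278), and its log2 fold change at Day 7 was -0.91 (adjusted p = 0.0668, or 0.0476 and 0.0266 with a replicate block over all libraries and within time points). With 1 library left out, its Day 3 call held in 6 of 12 fits (adjusted p up to 0.246) and its 4-week call in 7 of 12 (adjusted p up to 0.129), and the Day 7 value passed with DESeq2 (adjusted p = 0.0161) and with no filter on low counts (adjusted p = 0.000848). The venous chemokine receptor *Ackr1* was at or below 0.308 CPM in every library and was not tested.

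Of 16 other lymphatic genes, 14 were tested, of which 1 was higher and 2 lower on Day 3, 3 higher and 3 lower on Day 7, and 4 higher and 5 lower after 4 weeks. Over all genes the shares higher and lower were 7.19% and 5.13%, 9.48% and 7.93%, and 11.9% and 11%. The 1 of 14 called higher on Day 3 was thus close to the share over all genes. With a replicate block over all libraries, 3 were lower on Day 3 (6.64% of all genes), and 2 were higher and 4 lower on Day 7 (10.1% and 9.42%). With the block within time points, 2 were higher and 4 lower on Day 3 (12.7% and 10.4% of all genes). On Day 7, 4 were then higher and 5 lower (13.8% and 13.3%), and 5 were higher after 4 weeks (15.5%). *Foxc2*, a forkhead factor of lymphatic valves, was higher at each time point (log2 fold changes 1.08, 1.26 and 1.395), and *Reln* (reelin, secreted by collecting lymphatics) and the valve integrin *Itga9* at Day 7 (2.56 and 1.14) and 4 weeks (5.36 and 1.48). The Day 3 call on *Foxc2* held in only 3 of 12 fits with 1 library left out (adjusted p up to 0.229), its Day 7 call in 11 (up to 0.136) and its 4-week call in 10 (up to 0.0751), and the Day 7 call on *Itga9* held in 10 (up to 0.0663). The Day 7 call on *Reln* held in 2 of 12, with values from 1.73 to 4.515 and adjusted p up to 0.272, and was lost with a replicate block over all libraries (adjusted p = 0.0642). With Day 7 fitted alone, the Day 7 calls on *Foxc2* (adjusted p = 0.131), *Reln* (adjusted p = 0.148) and *Svep1* (adjusted p = 0.114) were lost. The genes called lower at 2 time points encode secreted partners of lymphatic growth, and the part of fibroblasts in their values was not tested. In control the means of *Svep1* were 168, 510 and 799 CPM and those of *Vegfd* 189, 162 and 145 CPM. The highest control means of *Ccbe1* and *Adamts3* were 6.25 and 9.81 CPM. *Ccbe1* (-2.37 and -3.85), *Adamts3* (-2.78 and -3.07) and *Svep1* (-2.20 and -3.10) were lower at Day 7 and 4 weeks, and the ligand *Vegfd* at Day 3 and 4 weeks (-2.19 and -1.65). The block within time points added *Svep1* at Day 3 (adjusted p = 0.00589, and 0.0333 with the block over all libraries) and *Vegfd* at Day 7 (adjusted p = 0.00515). With 1 library left out, the *Vegfd* calls held in 9 of 12 fits at either time point, the Day 7 calls on *Ccbe1* and *Svep1* in 8 and 10, and the 4-week calls on *Ccbe1*, *Adamts3* and *Svep1* in all 12. The log2 fold changes themselves moved in these fits, down to -5.76 for *Ccbe1* at 4 weeks and to -3.68 for *Adamts3* and -3.36 for *Svep1* at Day 7. *Flt4*, the VEGF-C receptor of lymphatic endothelium, was between 17.3 and 61.5 CPM in both arms and was not called, with log2 fold changes of -0.36, -0.46 and -0.50 and adjusted p of 0.55, 0.41 and 0.359. *Ccl21a* and *Tbx1* had too few counts for the test.

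Of 17 arterial genes, all tested, 8 rose and 2 fell on Day 3, beside 7.19% and 5.13% of all genes. On Day 7, 13 rose and 2 fell, beside 9.48% and 7.93%, and after 4 weeks 14 rose and 2 fell, beside 11.9% and 11%. With a replicate block within time points 11 rose on Day 3, beside 12.7% of all genes, *Dll4*, *Notch1* and *Notch4* being added. Their median log2 fold change was 1.74, 2.49 and 3.53, beside -0.50, -0.91 and -0.12 for the other venous and -0.41, -0.36 and -0.18 for the other lymphatic genes. *Efnb2*, the ligand of *Ephb4*, was higher at each time point (1.74, 2.71 and 4.19), and so were *Hey1*, *Hey2*, *Jag1*, *Gja5*, *Bmx* and *Sema3g*. *Nrp1*, *Dll4*, *Notch1*, *Notch4*, *Jag2* and *Unc5b* were called higher at 2 time points, and *Cxcl12* and *Acvrl1* were lower at each. With 1 library left out, the Day 3 call on *Acvrl1* held in 6 of 12 fits (adjusted p up to 0.241) and those on *Cxcl12*, *Hey1* and *Gja5* in 9 of 12. With Day 7 fitted alone, the calls there on *Nrp1*, *Dll4*, *Notch4*, *Unc5b* and *Acvrl1* were lost (adjusted p between 0.0535 and 0.0734), leaving 9 arterial genes higher and 1 lower. Whether the lists differed from each other was not tested.

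**Figure D4:**
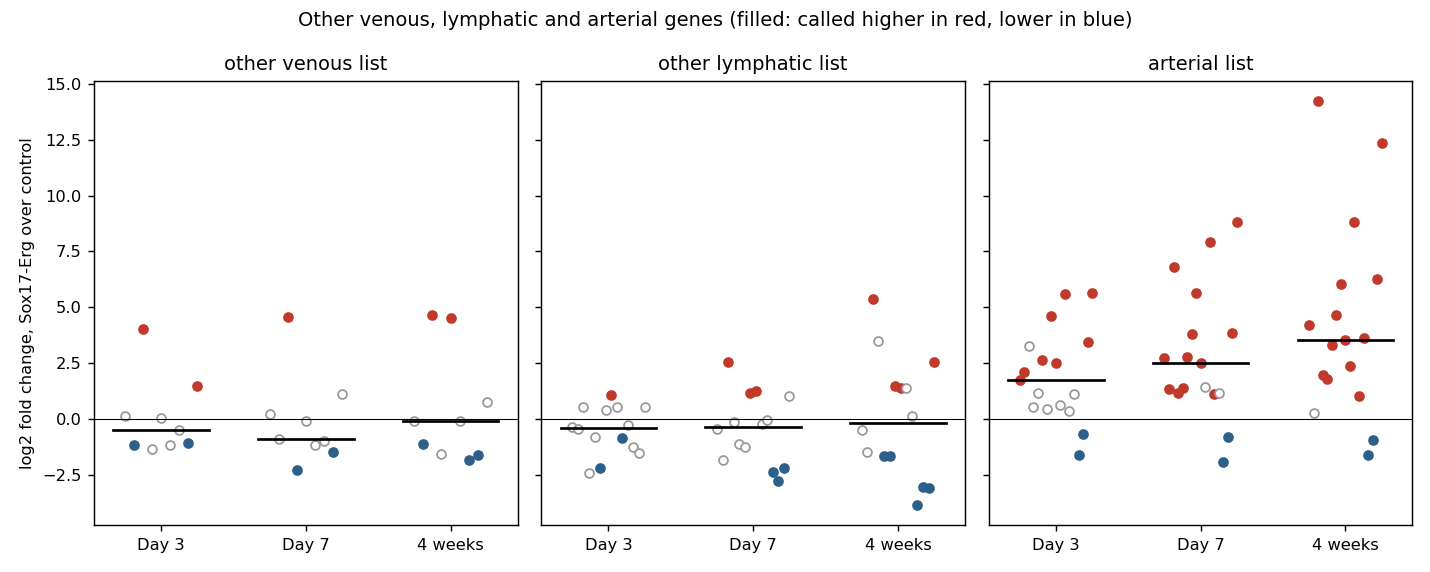
Log2 fold change of *Sox17*-*Erg* over control (vertical axis) of each tested gene of the other venous, other lymphatic and arterial lists at Day 3, Day 7 and 4 weeks. Filled points were called higher (red) or lower (blue), open points were not called, and the black bar is the median of the list, which for the arterial genes goes from 1.74 to 3.53. The arterial point above all others at 4 weeks is *Dll4*, which had 0 counts in both control libraries. Its height therefore depends on the prior count inside the edgeR fit, which is separate from the prior count of 2 used for log2 CPM.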

How the data were processed

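RNA from control and *Sox17*-*Erg* cells was made into stranded mRNA libraries and read as pairs of 50 bases. The authors deposited 1 table of estimated counts per gene. The submitters' processing notes name bcl2fastq 2.20.0, Salmon, DESeq2 and the mm10 build, and the study's methods add trimming of reads with high GC content. The Salmon version and the annotation are not given in the sources used here. Estimated counts were rounded to whole numbers. Gene symbols and positions were taken from GENCODE M21 (GRCm38), which matched 35493 of 35727 identifiers, and promoter windows from RefSeq.

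Genes were filtered with filterByExpr (minimum count 10, minimum total 15), leaving 15506, and scaled by TMM. A quasi-likelihood model with 1 mean for each of the 6 groups and 6 residual degrees of freedom was fitted with edgeR 4.0.16 in R 4.3.3, and p-values were adjusted by Benjamini-Hochberg over all genes tested, with a threshold of 0.05. Log2 CPM used a prior count of 2. Exact two-sided permutation tests exchanged libraries within time points (216 assignments, 8 tests, unadjusted). Within 1 time point, 2 libraries against 2 cannot reach the threshold by permutation.

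Equal replicate numbers in the labels were checked as pairs. The deviations of same-numbered libraries correlated at 0.19 (Day 3), 0.3 (Day 7) and 0.17 (4 weeks), and since each was over 0.1, fits with a replicate block are given beside the results they changed. Alternatives were DESeq2 1.42.0, other filters and thresholds, single time points, the replicate block and leaving out each library. Library totals of 19011635 to 41240449 counts set the precision of low genes. Members and gene lists were chosen with earlier results of these data known. The genes named were the 8 members, the 2 tested genes with the highest correlation to each, the genes of the other venous, other lymphatic and arterial lists called in 1 direction at 2 or more time points, and *Ephb4*, *Nrp2*, *Flt4*, *Efnb2*, *Apela*, *Nr2f6*, *Sox17* and *Erg*. *Cd44*, *Stab2*, *Cldn5*, *Cdh5*, *Cx3cr1*, *Lyz2*, *Tbx18*, *Tnnt2*, *Myh6*, *Actc1*, *Nppa*, *Ryr2*, *Tnni3*, *Msln*, *Upk3b*, *Upk1b*, *Wt1*, *Krt19*, *Krt8*, *Lrrn4*, *Tcf21*, *Pdgfra*, *Dcn*, *Lum*, *Postn* and the untested list genes were named after their values were seen.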

Additional observations from a re-analysis of the deposited data

Results flagged for a closer look

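The effect of *Sox17*-*Erg* on *Prox1* differed between time points by the test of the difference itself. The log2 fold change over control was 2.85 units larger at 4 weeks than at Day 3 (SE 0.50, 95% interval 1.72 to 3.97, edgeR adjusted p = 0.0195), and *Prox1* was higher with *Sox17*-*Erg* in 6 of 6 same-numbered pairs.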

How the results depend on the processing

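With a replicate block within each time point, 4 members were called lower at Day 7 and 4 higher at 4 weeks. The replicate block over all libraries and the block within time points changed no member's call at a single time point or difference in effect other than those given with the results, and of 162 values of named list genes they weakened 1 and made 8 pass, all given there too. At an adjusted p under 0.01, 1 member was higher and 0 lower at Day 3, 0 were lower at Day 7 and 1 was higher at 4 weeks. With 4 weeks fitted alone, 1 member was higher there. Leaving out 1 library gave 1 to 3 members higher and 0 to 1 lower at Day 3, 0 to 2 lower at Day 7, and 1 to 2 higher and 0 to 1 lower at 4 weeks, where the lone library of a group is assumed to vary like the other groups. The calls on *Prox1* at Day 7 and 4 weeks and on *Nr2f1* at Day 3 and Day 7 held in each of these 12 fits. Of 252 member values at a time point with 1 library left out, 221 kept their direction and side of the threshold, 22 lost their call, 1 gained one and 8 reversed.

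Values that changed sign with 1 library left out were not called with all libraries. For *Lyve1* they ran from -0.0138 to 1.01 at Day 3 and from -0.35 to 1.67 at 4 weeks, for *Apln* from -0.67 to 0.34 at Day 3, for *Nr2f2* from -0.30 to 0.0798, for *Pdpn* from -0.42 to 0.0895 and for *Stab1* from -0.75 to 3.14 at 4 weeks, all as log2 fold changes. The difference in effect between 4 weeks and Day 3 ran from -0.95 to 1.09 for *Lyve1* and from -0.10 to 3.82 for *Stab1*. Among the list genes the log2 fold change at Day 3 ran from -0.0163 to 1.505 for *Reln*, -0.89 to 0.17 for *Ccbe1* and -0.23 to 0.89 for *Jag2*, and at Day 7 from -1.30 to 0.0569 for *Flt4*. The cause of these changes was not tested. With no filter on low counts, the difference in effect between 4 weeks and Day 3 passed for *Nr2f2* (-0.84, adjusted p = 0.0326), and that between 4 weeks and Day 7 for *Prox1* (1.82, adjusted p = 0.00931). The alternatives for the list genes, the sign-flip test and the size factors in the permutation test were chosen after seeing the data. *Apln* in *Sox17*-*Erg* cells and *Aplnr* rested on few counts, which limits what could be detected.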
